A study of Homo sapiens with 36 samples.

Results

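The data described here are the first phase of neuron induction in RAI1 heterozygous mutant cells: the 4 HET libraries of day 3 set against the 4 HET libraries of day 0. They are 8 of the 36 libraries of the series and were chosen by their labels alone. All cells derive from H9, a human embryonic stem cell line, and carry a doxycycline-driven NGN2 system (NGN2 is the product of the gene NEUROG2). The HET cells are labelled RAI1 heterozygous mutants, and the wild-type (WT) and knockout (KO) cells of the same line serve as comparison at the same days, with 4 biological replicates in each group. All libraries carry the cell type label iNeuron, those of day 0 included. Cells were kept on Geltrex in mTeSR Plus, and induced cultures received Neurobasal-A with GlutaMAX, B27, GDNF, NT3 and CultureOne. The labels do not say how many clones stand behind each genotype or whether replicates came from separate inductions, so p-values measure the spread between these samples. Total RNA was depleted of ribosomal RNA before sequencing.

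NGN2 is a basic helix-loop-helix transcription factor that drives neural precursors to leave the cell cycle and become neurons, and its forced expression converts pluripotent stem cells directly into excitatory neurons. Proneural factors act through E-box DNA motifs and switch on further transcription factors of the NEUROD and EBF families as well as ligands of the Notch pathway. RAI1 is a chromatin-associated protein whose haploinsufficiency causes Smith-Magenis syndrome. The comparison asks how the stem cell programme of the heterozygous cells is replaced during the first days of induction, and whether that change differs from the change in WT and KO cells.

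The HET libraries held 23948079 to 35712067 counts at day 0 and 31974569 to 56678796 at day 3. RN7SL1, RN7SL2, RN7SK, RPPH1 and RMRP, 5 small structural RNAs, took 4.16% to 5.98% of counts at day 0 and 5.11% to 16.11% at day 3. The day 3 share was lowest in replicate 2 and highest in replicate 4. Replicate 4 of day 3 stood apart from its group: its log2 levels correlated across genes with those of the other day 3 replicates at r = 0.924 to 0.955, against 0.974 to 0.990 among the other day 3 replicates. Levels below are CPM, the counts scaled to library size with trimmed-mean (TMM) normalization factors, unless another scale is named. The labels give a single batch.

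RAI1, the targeted gene (ENSG00000108557, chromosome 17, 17681473 to 17811453 in GRCh38, coordinates from the GENCODE 29 annotation supplied as reference), was measured first. It stood at 48.5, 40.8, 39.7 and 28.8 CPM in the day 0 libraries and at 68.8, 87.7, 85.9 and 43.3 CPM at day 3. Day 3 replicate 4 lay within the day 0 range, so the groups overlapped. RAI1 rose by 0.86 log2 (SE 0.24, edgeR quasi-likelihood adjusted p = 0.0118), whereas the exact two-sided permutation test on CPM gave p = 0.0571, where the smallest possible p is 0.0286. On the deposited TPM scale the difference was 0.15 log2 (limma adjusted p = 0.776). The gene overlaps SREBF1 in that annotation. A heterozygous label cannot be checked from these counts.

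By day 3, 5554 of 20315 genes tested had risen (27.3% of them) and 5341 had fallen (26.3%) at an edgeR adjusted p under 0.05. The list counts below stand beside these shares, and a count near them is no result about its list. The 4 and 4 libraries did not overlap for 51.7% of genes tested. Among the called genes, 3877 rises and 3286 falls exceeded 2-fold, and 893 rises and 999 falls exceeded 8-fold. Protein-coding genes made up 87.4% of the falls and 72.5% of the rises, beside 72.7% of genes tested. The median change over all genes tested was 0.05 log2. Scaling to library size alone moved that median to -0.09 and the deposited TPM moved it to -0.35. The split moved with it: 51.0% of calls were rises in the main analysis, 44.1% on library size alone and 18.3% on the deposited TPM. The small structural RNAs made up 53.7% to 76.88% of the deposited TPM of these 8 libraries.

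**Figure D1:**
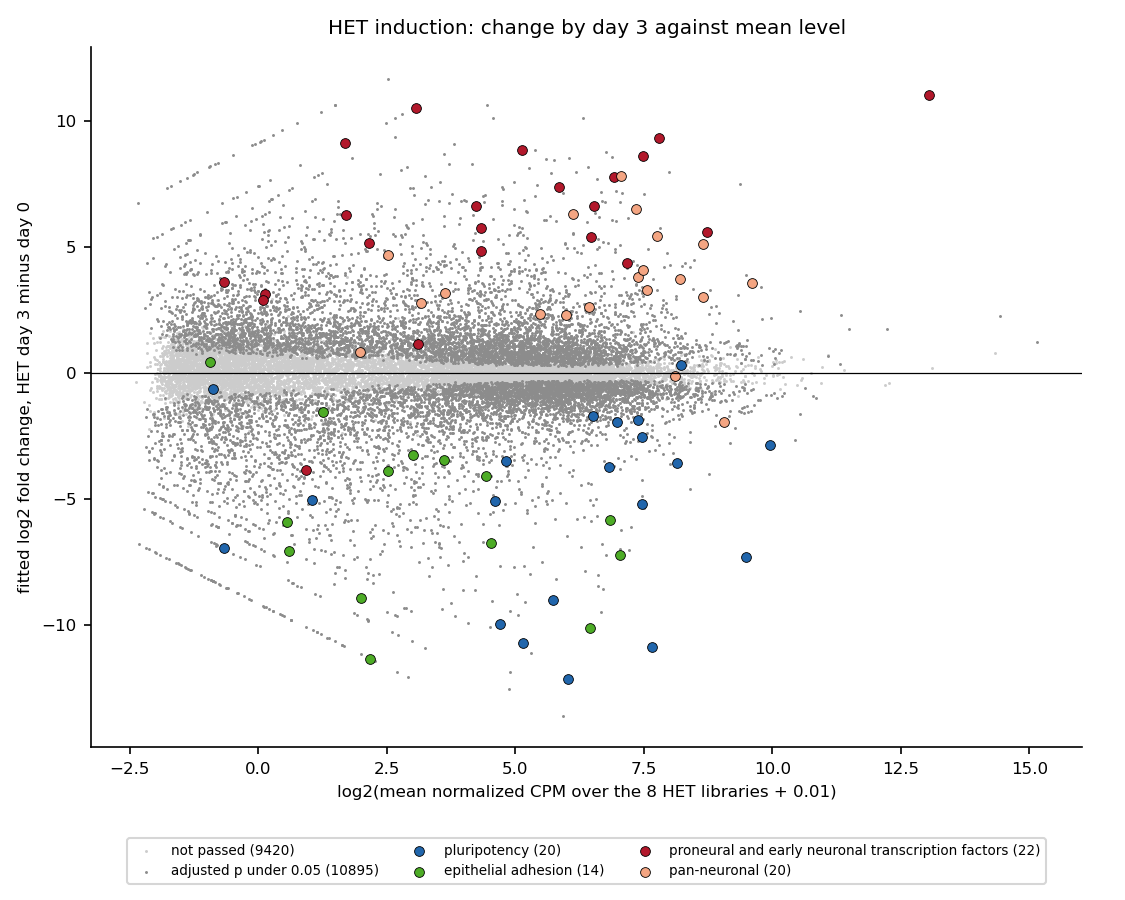
Fitted log2 fold change between day 0 and day 3 in HET cells (vertical) against log2 of the mean normalized CPM over the 8 libraries (horizontal, with 0.01 added), 1 point per gene tested. Of the 20315 genes, 10895 passed (dark grey); the pluripotency genes (blue) lie mostly below 0 and the proneural genes (red) mostly above it, with epithelial adhesion in green and pan-neuronal genes in orange. Fitted values of genes at 0 in a group depend on the prior count.

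Most genes of the pluripotent state had fallen by day 3. Of 20 pluripotency genes tested, 18 fell and none rose, with a median change of -4.38 log2 beside 0.05 over all genes tested. NANOG, a core pluripotency factor, was at 37.2, 48.6, 47.6 and 76.2 CPM at day 0 and at 0.0786, 0.0257, 0.0746 and 0 CPM at day 3, a fall of 9.94 log2 (SE 0.45, edgeR adjusted p = 3.39e-07). The groups were far apart. POU5F1, which encodes OCT4, was at 226.5, 305.1, 305.3 and 533 CPM at day 0. At day 3 POU5F1 was at 0.628, 1.13 and 0.541 CPM in replicates 1 to 3 and at 35.9 CPM in replicate 4, the replicate that stood apart. Its groups did not overlap (-5.19 log2, SE 1.34, edgeR adjusted p = 0.00859). POU5F1 has near-identical retrocopies and overlaps TCF19, so its level is uncertain. In contrast SOX2, shared by stem cells and neural progenitors, kept part of its level, from a mean of 198.5 ± 16.2 CPM to 52.3 ± 5.67 CPM (SD, n = 4 each), a fall of 1.92 log2 (SE 0.13). ESRG, a long non-coding RNA of human pluripotent cells, was at 95.2 to 159.8 CPM at day 0 and had 4 counts in all at day 3. Its fitted fall was 12.13 log2 (SE 0.46, edgeR adjusted p = 1.76e-07), a size that rests on those 4 counts. LIN28A, an RNA-binding protein that blocks the maturation of a microRNA family, had the highest CPM of the list and fell by 2.86 log2 (SE 0.26), from 1379 to 1975 CPM down to 189.6 to 370.8 CPM. Its paralogue LIN28B did not pass (0.33 log2, SE 0.22, edgeR adjusted p = 0.221), nor did DPPA2.

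Most genes around the NODAL signal, which sustains human pluripotency, also fell. Of 11 tested, 8 fell and 1 rose, with a median of -4.94 log2, or -3.78 when genes at 0 at day 3 are set at their lower bound. NODAL itself was low on both days. Per length, and leaving out the small structural RNAs, it was at 0.744 ± 0.26 TPM at day 0 and 0.708 ± 0.38 TPM at day 3 (SD, n = 4). ACVR2B had the highest CPM of the list and did not pass (-0.16 log2, SE 0.17, edgeR adjusted p = 0.469). TDGF1, the NODAL co-receptor, was at 41.5, 101.4, 134.4 and 208.9 CPM at day 0 and had 1 count in all at day 3. Its ratio of day 0 to day 3 was 19250 (95% exact Poisson interval 3455 to 760200, counting error of the day 3 count only). The type I receptor ACVR1B was the riser, by 1.25 log2 (SE 0.16, edgeR adjusted p = 1.50e-04).

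Epithelial adhesion genes, which hold stem cell colonies together, fell in 11 of 14 tested members, with a median of -5.87 log2. KRT18, a keratin of simple epithelia, was at 163.1 to 195 CPM at day 0 and at 0.0187 to 0.579 CPM at day 3 (-10.13 log2, SE 0.60). The splicing regulator ESRP1 had no count in any day 3 library and was at least 113.3-fold lower. Tight-junction gene CLDN6 fell by 7.20 log2 (SE 0.40, edgeR adjusted p = 9.65e-07). None of the 14 rose.

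NEUROG2, the induced factor, was at 12.4, 7.55, 7.62 and 4.94 CPM at day 0 and at 16980, 15310, 15250 and 20200 CPM at day 3, a rise of 11.02 log2 (SE 0.41, edgeR adjusted p = 1.76e-07). The counts do not separate the induced transgene from the endogenous gene. Per length, and leaving out the small structural RNAs, it reached 12270 TPM at day 3, against 2407 TPM for GAPDH and 1601 TPM for TUBB3. Of the proneural list, 21 of 22 tested transcription factors of early neurons rose and 1 fell, with a median of 6.01 log2. NHLH1, a helix-loop-helix factor of newborn neurons, went from 0.354 to 1.3 CPM up to 422.5 to 469.9 CPM (9.33 log2, SE 0.39, edgeR adjusted p = 2.31e-07). The differentiation factors NEUROD4 (mean 359.5 ± 57 CPM at day 3; SD, n = 4) and NEUROD1 (70 ± 33 CPM) reached at most 1.33 CPM in any day 0 library. NEUROD1 ran from 29.5 CPM in replicate 4 to 109.7 CPM in replicate 3 at day 3.

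**Figure D2:**
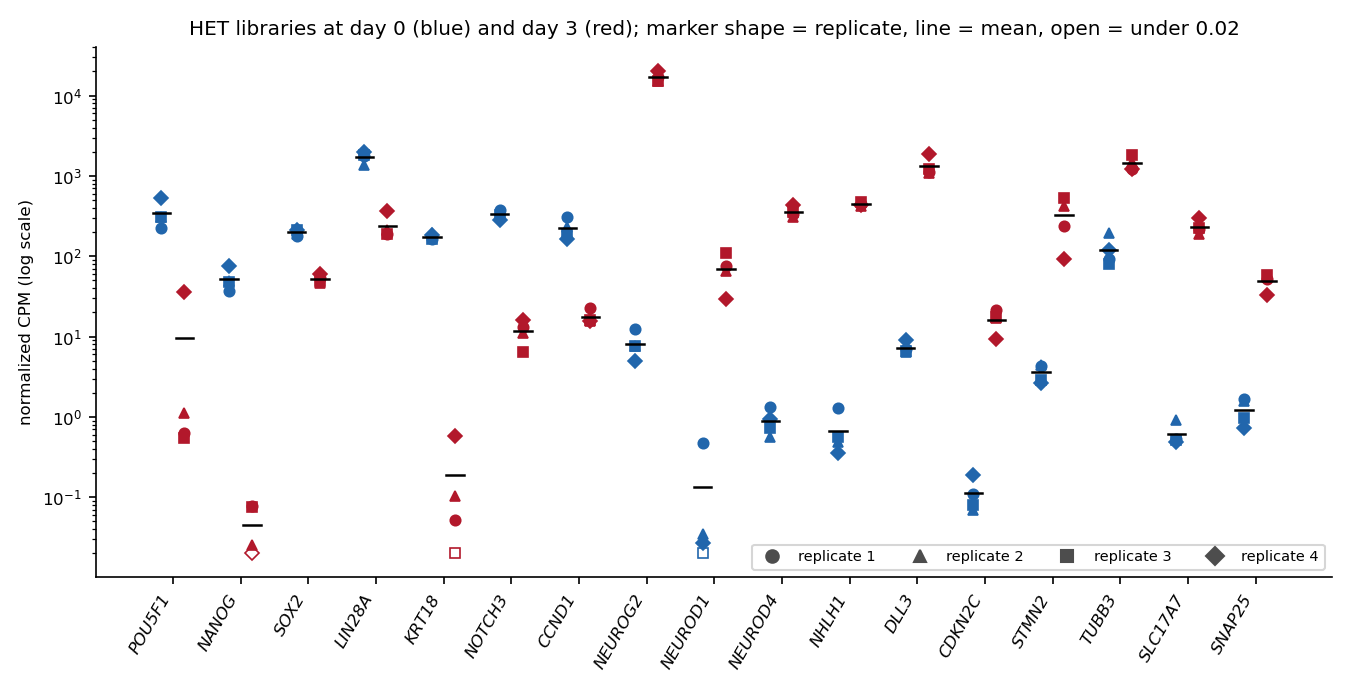
Normalized CPM (log axis) of 17 genes in the 4 HET libraries of day 0 (blue) and day 3 (red); marker shape gives the replicate and the line the group mean, and open markers stand for values under 0.02. POU5F1 at day 3 reads 35.9 CPM in replicate 4 and at most 1.13 CPM in the others, while NHLH1 lies between 422.5 and 469.9 CPM in all 4.

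Members of the Notch pathway, by which newborn neurons keep their neighbours undifferentiated, changed in both directions. The list of 18 had 7 rises and 7 falls and a median of -0.03 log2. DLL3, a cell-autonomous Notch inhibitor of the ligand family, went from 6.5 to 9.05 CPM up to 1096 to 1867 CPM, a rise of 7.5 log2 (SE 0.27, edgeR adjusted p = 1.56e-07). The receptor NOTCH3 fell by 4.87 log2 (SE 0.29, edgeR adjusted p = 1.27e-06), while NOTCH1 did not pass (0.10 log2, SE 0.14). The Notch target HES1 was at 13 to 15.7 CPM at day 0 and at 0.707, 0.128, 0 and 9.95 CPM at day 3, and did not pass (edgeR adjusted p = 0.124).

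Of the neural progenitor genes, 2 of 17 rose and 9 fell, with a median of -1.01 log2. NES, which encodes the progenitor filament nestin, had the highest CPM of the list and did not pass (-0.09 log2, SE 0.21). The transcription factor SOX21 fell by 7.15 log2 (SE 0.41, edgeR adjusted p = 1.03e-06). PAX6 rose by 2.03 log2 (SE 0.69, edgeR adjusted p = 0.0311). Its groups overlapped, with day 0 replicate 1 at 5.65 CPM and day 3 replicate 4 at 4.74 CPM.

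Pan-neuronal genes rose in 17 of 20 tested members and 1 fell, with a median of 3.44 log2. TUBB3, the neuronal beta-tubulin, was at 80 to 193.5 CPM at day 0 and at 1238, 1508, 1798 and 1209 CPM at day 3 (3.57 log2, SE 0.30, edgeR adjusted p = 1.08e-05). The RNA-binding protein gene ELAVL3 rose by 7.83 log2 (SE 0.26, edgeR adjusted p = 1.56e-07). The microtubule regulator STMN2 reached 241.1, 422.7, 539 and 91.9 CPM at day 3. MAP2, the dendritic marker, did not pass (-0.11 log2, SE 0.39), and DPYSL3 fell by 1.94 log2 (SE 0.30, edgeR adjusted p = 4.32e-04). Day 3 replicate 4 held the lowest day 3 level of 15 of the 20 members and of 16 of the 22 proneural factors. It also held the highest level of 13 of the 20 pluripotency genes. Whether its small structural RNA share of 16.11% has a part in this was not tested. Without this library 18 of 20 pan-neuronal genes rose and 18 of 20 pluripotency genes fell, and 1 pluripotency gene rose.

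Synaptic genes rose in 17 of 25 tested members and fell in 2, with a median of 2.29 log2. CPLX1, a complexin of the release machinery, went from at most 0.382 CPM to 67.5 to 88.1 CPM (8.12 log2, SE 0.29, edgeR adjusted p = 1.56e-07). SV2A, a vesicle glycoprotein, fell by 1.68 log2 (SE 0.17, edgeR adjusted p = 3.50e-05).

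Of 13 genes that set the neurotransmitter, 7 were tested, 4 rose and none fell. SLC17A7, the vesicular glutamate transporter VGLUT1, was at 0.491 to 0.913 CPM at day 0 and at 221.5, 190.9, 224.1 and 302.1 CPM at day 3 (8.59 log2, SE 0.27, edgeR adjusted p = 1.35e-07). The cholinergic pair CHAT and SLC18A3, which share a locus, rose as well, to 9.85 ± 2.71 and 18 ± 7.95 CPM (SD, n = 4). GAD1, which makes GABA, did not pass (-0.63 log2, SE 0.89). Among 12 tested sensory and peripheral neuron genes 8 rose and 2 fell, with a median of 3.44 log2. TLX3, a homeobox factor of sensory neurons, went from at most 0.159 CPM to 23 to 48.6 CPM (8.28 log2, SE 0.41, edgeR adjusted p = 5.31e-07). Forebrain cortical identity was split, with 5 of 11 up and 5 down: FOXP2 rose by 6.07 log2 and BCL11B fell by 4.28 log2. That list's median of 0.33 log2 became -0.11 on the deposited TPM. The cortical marker TBR1 was too low to be tested, at no more than 0.334 CPM in any library.

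Receptors of neurotrophic factors, 2 of which the medium supplied, changed in both directions, with 5 rises and 2 falls among 7. GFRA1, a co-receptor of the supplied GDNF, was at 4.90, 9.73, 8.13 and 7.85 CPM at day 0 and at 64.5, 170.2, 139.6 and 98.9 CPM at day 3, a rise of 3.95 log2 (SE 0.34, edgeR adjusted p = 1.07e-05). Every day 3 library lay above every day 0 library. NTRK3, the receptor of the supplied NT3, rose by 2.93 log2 (SE 0.20, edgeR adjusted p = 3.22e-06). RET, the signalling receptor for GDNF, fell by 2.98 log2 (SE 0.37), and NTRK2 fell by 6.86 log2 (SE 0.57). NGFR had the highest CPM of the 7 and rose by 3.25 log2 (SE 0.20).

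Ion channel genes gave 9 rises and 5 falls among 19, with a median of 0.61 log2 that became -0.05 on the deposited TPM, where 6 rose and 5 fell and CACNA1A, a riser in CPM (0.41 log2, SE 0.16), had the opposite sign. SCN3B, a sodium channel beta subunit, rose by 4.96 log2, and the potassium channel gene KCND2 fell by 4.54 log2. Axon guidance and neuronal adhesion genes were also divided, with 9 of 23 up and 11 down. CNTN2 rose by 5.4 log2 and CNTNAP2 fell by 5.35 log2.

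A list of splicing factors and BAF chromatin complex subunits of the neuronal switch rose in 14 of 19 and fell in 4. It also holds repressors and progenitor counterparts. The list had 11 rises and 4 falls on library size alone and 7 rises and 5 falls on the deposited TPM. Without day 3 replicate 4 it had 14 rises and 3 falls. SRRM4, which activates neuronal microexons, went from 4.99 to 12 CPM up to 188.4 to 291.9 CPM (4.8 log2, SE 0.29, edgeR adjusted p = 1.61e-06). ACTL6B, the neuronal BAF subunit, rose by 7.10 log2 (SE 0.53), and its progenitor counterpart ACTL6A fell by 0.44 log2 (SE 0.16, edgeR adjusted p = 0.0354). REST, the repressor of neuronal genes, fell by 2.01 log2 (SE 0.18), and PTBP1, which represses neuronal exons, by 1.40 log2 (SE 0.13). Among the genes named so far, KRT18, CLDN6, PAX6, TLX3, GAD1, ACTL6A and REST overlap other counted genes, as do CCND1, ETV4 and PFKM named later, so their levels are uncertain. PTBP2 and DPF1, called as rises, had the opposite sign on the deposited TPM.

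**Figure D3:**
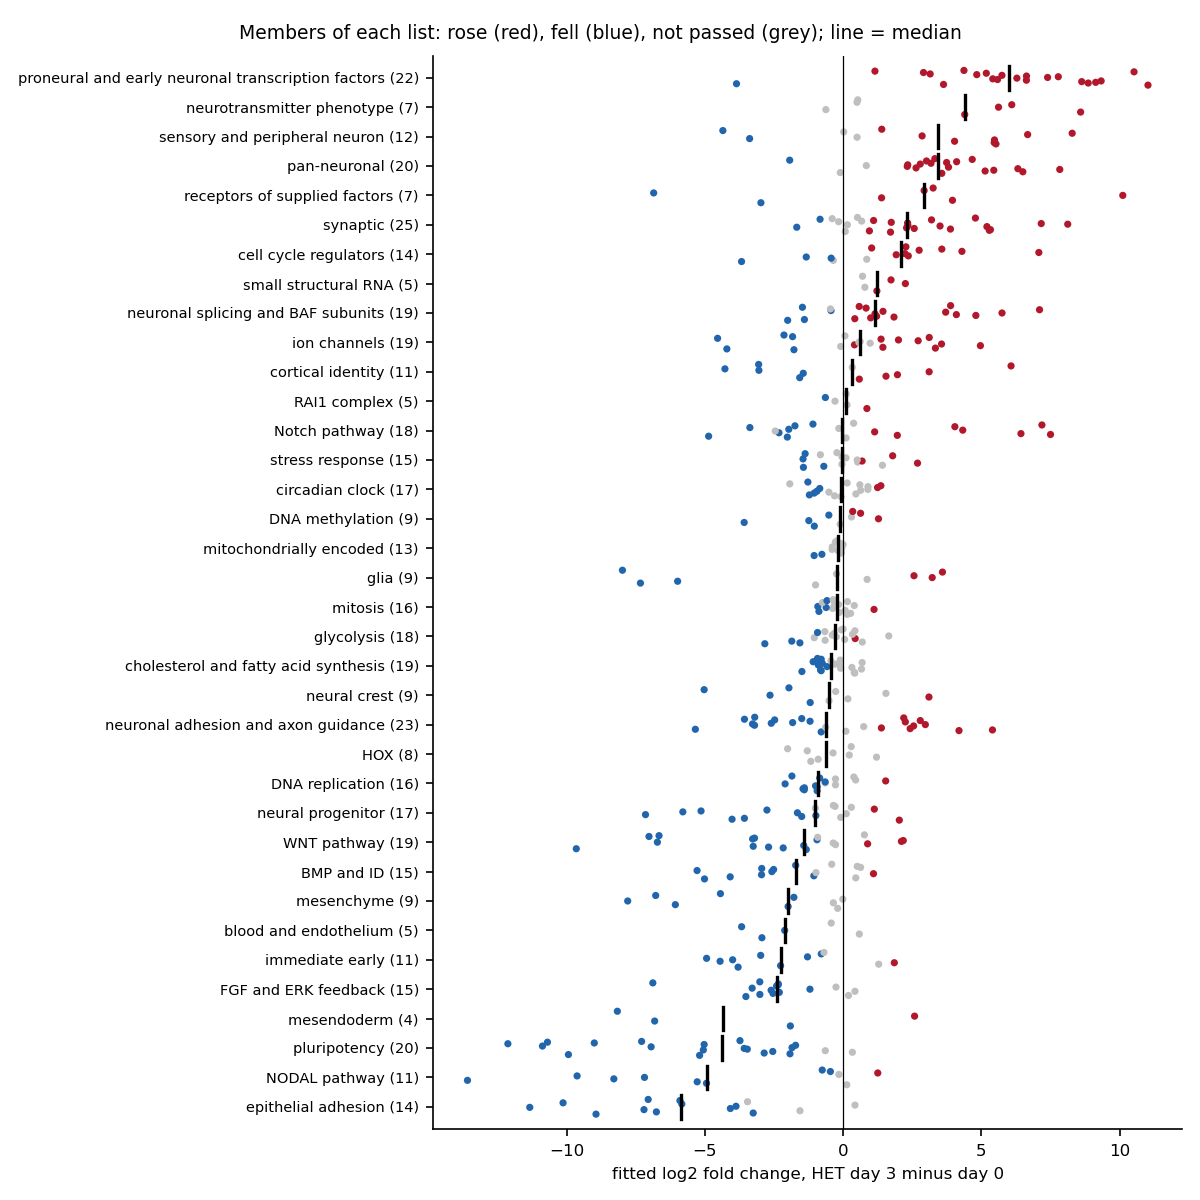
Fitted log2 fold change of every tested member of the 36 gene lists in HET cells, 1 point per gene, red for rises, blue for falls, grey for genes that did not pass, with a line at each list's median. The medians run from -5.87 (epithelial adhesion) to 6.01 (proneural factors), beside 0.05 over all genes tested.

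Cell cycle genes changed unevenly. DNA replication genes fell in 10 of 16 and rose in 1, with a median of -0.90 log2. CDC6, which loads the replicative helicase, was at 161.4 to 184.1 CPM at day 0 and 31.5 to 50.9 CPM at day 3 (-2.10 log2, SE 0.16, edgeR adjusted p = 5.29e-06). Of 16 mitosis genes, 4 fell, 1 rose and 11 did not pass, with a median of -0.24 log2. The share that fell is near the 26.3% of all genes tested. On the deposited TPM 9 of the 16 fell, and none passed in a fit that also held each library's share of small structural RNAs. TOP2A was at 423.4 to 709.5 CPM at day 0 and 555.5 to 755.1 CPM at day 3. Among 14 cell cycle regulators 9 rose and 3 fell. CDKN2C, an inhibitor of G1 cyclin-dependent kinases, went from at most 0.191 CPM to 9.33 to 21.3 CPM (7.08 log2, SE 0.41, edgeR adjusted p = 1.10e-06), and cyclin gene CCND1 fell by 3.68 log2 (SE 0.24). In bulk RNA, fewer cells expressing a gene and less RNA per cell cannot be told apart.

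Of 15 FGF and ERK feedback genes 12 fell and none rose, with a median of -2.41 log2. ETV4, an ERK target, fell by 6.89 log2 (SE 0.30, edgeR adjusted p = 3.35e-07), and FGFR1 by 2.54 log2. The list does not hold DUSP5, a phosphatase of ERK described below. In HET it rose by 4.53 log2 (SE 0.39, edgeR adjusted p = 1.45e-09) in the fit of 24 libraries. WNT pathway genes fell in 12 of 19 and rose in 3, and WNT3A had no count in any day 3 library and was at least 35.1-fold lower. BMP and ID genes fell in 9 of 15 and rose in 1: ID3, an inhibitor of helix-loop-helix factors, was at 69.5 to 95.9 CPM at day 0 and 1.54, 0.154, 0.205 and 6.91 CPM at day 3 (-5.29 log2, SE 0.98). Immediate early genes fell in 8 of 11 and rose in 1, JUNB. Among DNA methylation genes 4 of 9 fell and 3 rose: DNMT3B fell by 3.58 log2 (SE 0.27), and TET2 rose by 1.28 log2 (SE 0.17). On the deposited TPM 5 of the 9 fell and none rose, and the median went from -0.11 to -1.0 log2. MBD2, which binds methylated DNA, rose by 0.34 log2 (SE 0.13) in the CPM fit and had the opposite sign on the TPM.

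Cholesterol and fatty acid synthesis genes fell in 9 of 19 and none rose, with a median of -0.44 log2. HMGCS1, which makes the precursor of mevalonate, fell by 1.49 log2 (SE 0.24, edgeR adjusted p = 5.04e-04). Glycolysis genes fell in 4 of 18 and 1 rose, beside 26.3% falls and 27.3% rises over all genes tested. Without day 3 replicate 4, whose GAPDH was 2609 CPM against 1343 to 1423 CPM in the others, 12 of 18 glycolysis genes and 11 of 19 cholesterol genes fell, and 1 rose in each list. On the deposited TPM 13 of 18 glycolysis genes (median -1.19 log2) and 15 of 19 cholesterol genes (median -1.23 log2) fell and none rose. The glucose transporter SLC2A1 fell by 2.84 log2 (SE 0.17). The riser PFKM had the opposite sign on the deposited TPM.

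Markers of other cell types were counted in the same way, beside 27.3% rises and 26.3% falls over all genes tested. Of 9 tested mesenchyme genes 6 fell and none rose, and their summed level ran from 568.3 to 1900 CPM at day 0 and from 163.8 to 1008 CPM at day 3. COL1A1 alone ran from 87.7 to 1098 CPM at day 0 and from 126 to 816.5 CPM at day 3 and did not pass (-0.20 log2, SE 0.78). Of 9 tested glial genes 3 rose and 3 fell: MBP, a myelin protein gene, rose by 3.59 log2 and SLC1A3, an astrocyte glutamate transporter gene, fell by 5.99 log2. The summed glial level ran from 96.3 to 136 CPM at day 0 and from 33.9 to 68.2 CPM at day 3. AQP4 had no count in any day 3 library. Mesendoderm genes were tested in 4 of 11 cases, with 3 falls and 1 rise. Most of their day 0 level was KDR, which fell by 8.17 log2 (SE 0.70), and TBXT and FOXA2 had no count at day 3. Blood and endothelial genes fell in 3 of 5 tested, and neural crest genes rose in 1 of 9 (PAX3, 3.10 log2) and fell in 4. HOX genes were tested in 8 of 39 cases and none passed, while a fit with a replicate block called 1 rise and 1 fall. Their summed level ran from 0.632 to 290.5 CPM at day 0 and from 11.8 to 157.8 CPM at day 3, highest in replicate 1 on both days, as was each of the 8 genes. The part of such cells in the results was not tested.

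The remaining lists are set beside 27.3% rises and 26.3% falls over all genes tested. Counts near these shares, as for the stress response genes, are no result about a list. Of 5 genes of the RAI1 complex, RAI1 rose, 1 fell, and PHF14, TCF20 and HMG20B did not pass. The list's median of 0.11 log2 became -0.68 on the deposited TPM and -0.03 on library size alone. Of 17 circadian clock genes 2 rose and 5 fell: the repressor gene CRY1 fell by 0.95 log2 (SE 0.12, edgeR adjusted p = 1.23e-04) and TEF rose by 1.36 log2 (SE 0.24). Of 15 stress response genes 3 rose and 4 fell: DDIT3, a factor of the unfolded protein response, rose by 1.79 log2 (SE 0.42, edgeR adjusted p = 0.00494), and HSPA1A, a heat shock protein gene, fell by 1.38 log2 (SE 0.35). Of 13 mitochondrially encoded genes MT-ND1 and MT-ND2 fell and none rose. Of the 5 small structural RNAs 3 rose and none fell, RN7SK by 2.25 log2 (SE 0.37).

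The largest single changes included genes outside these lists. GGT5, a gamma-glutamyltransferase, rose by 10.12 log2 (SE 0.66, edgeR adjusted p = 2.17e-06). MIR4280HG had no count at day 0 and was at least 117.4-fold higher at day 3. AKAIN1 had 1 count at day 0 and was at 14.4 to 14.8 CPM in replicates 1, 3 and 4 and at 11.95 CPM in replicate 2 at day 3. CACNG2, an AMPA receptor auxiliary subunit, and UNCX, a homeobox gene, each had 1 count at day 0 and were at 6.55 to 15.7 CPM and 5.90 to 15.2 CPM at day 3. BHLHE22, a helix-loop-helix factor, had 1 count at day 0 and was at 18.2, 15.2, 29.7 and 3.62 CPM at day 3. KLHL40 had 2 counts at day 0. It was at 7.07, 1.62 and 2.18 CPM in replicates 1 to 3 and at 39.8 CPM in replicate 4. Among the falls, L1TD1 dropped by 10.88 log2 (SE 0.74). ANXA1, an annexin at 6.16 to 173.3 CPM at day 0, and LCK, a tyrosine kinase, were each left with 1 count at day 3 and LIX1 with 2. LINC02700 and CXCL5 had none and were at least 187.8-fold and 163-fold lower. ZSCAN10 fell by 10.70 log2 (SE 0.73).

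Promoter windows from RefSeq (GRCh38.p14, 250 bases before to 50 after each gene start) were matched for 3510 of the risen and 3931 of the fallen gene symbols. The E-box CAGATG, counted with its complement CATCTG, lay in 12.5% of the rises, 8.4% of the falls, 10.1% of genes tested and 14.8% of all promoters. The palindromic E-box CAGCTG lay in 20.3%, 15.4%, 17.3% and 17.7%. The octamer ATGCAAAT, counted on both strands, lay in 1.4%, 1.7%, 1.6% and 1.8%. These are matches of letters, not sites. Windows were matched for 6 of the 10 largest rises and 6 of the 10 largest falls, and the others were not searched. The 3 promoters printed here are those of the 10 largest rises and 10 largest falls whose upstream window holds either of these searched E-boxes, apart from AKAIN1, and show the upstream part only, with those matches in capitals. Other E-boxes were not searched for and stay in lower case. They are NHLH1 at chr1:160366821-160367070, KLHL40 at chr3:42685287-42685536 and ANXA1 at chr9:73151615-73151864, all on the plus strand.
NHLH1: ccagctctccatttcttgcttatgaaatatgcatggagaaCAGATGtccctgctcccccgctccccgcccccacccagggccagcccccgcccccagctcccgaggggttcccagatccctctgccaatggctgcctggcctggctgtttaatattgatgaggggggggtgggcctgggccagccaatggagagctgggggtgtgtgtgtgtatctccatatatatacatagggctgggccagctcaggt
KLHL40: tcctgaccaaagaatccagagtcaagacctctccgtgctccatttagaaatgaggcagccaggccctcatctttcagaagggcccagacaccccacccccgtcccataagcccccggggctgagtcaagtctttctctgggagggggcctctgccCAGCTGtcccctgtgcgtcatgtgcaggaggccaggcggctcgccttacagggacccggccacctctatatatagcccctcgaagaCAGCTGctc
ANXA1: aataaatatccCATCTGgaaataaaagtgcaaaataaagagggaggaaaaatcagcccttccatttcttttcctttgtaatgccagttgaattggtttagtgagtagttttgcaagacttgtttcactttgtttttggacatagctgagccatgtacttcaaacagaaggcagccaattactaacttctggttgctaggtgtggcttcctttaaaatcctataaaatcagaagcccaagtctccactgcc

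The change from day 0 to day 3 was compared between genotypes by interaction terms on the 24 libraries of both days. At an edgeR adjusted p under 0.05 the HET change differed from the WT change for 115 of 23333 genes (0.493%), 77 of them with a higher log2 change in HET. It differed from the KO change for 129 genes (0.553%), 62 of them with the higher change in HET. Both comparisons use the same HET libraries, so they are not independent of each other. The count against WT was 350 without HET day 3 replicate 4 and 56 without HET day 3 replicate 3. The count against KO was 362 without KO day 3 replicate 4 and 51 without HET day 0 replicate 2. On the deposited TPM the counts were 29 and 22.

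DUSP5, a nuclear phosphatase of ERK, rose in HET and fell in both other genotypes. Its mean was 29.7 ± 13.5 CPM in HET at day 0 and 685 ± 225.2 CPM at day 3, while WT went from 26.5 ± 11.3 to 1.97 ± 0.674 CPM and KO from 27.6 ± 7.62 to 2.37 ± 1.22 CPM (SD, n = 4 each). The change was larger in HET than in WT by 8.28 log2 (SE 0.55, edgeR adjusted p = 2.10e-09) and than in KO by 8.06 log2 (SE 0.54, edgeR adjusted p = 4.74e-09). SLITRK5, a synaptic adhesion protein on chromosome 13, went from 15.9 ± 3.66 to 317.1 ± 17.3 CPM in HET and stood at 25.9 ± 3.12 CPM in WT and 17.3 ± 2.58 CPM in KO at day 3. Its neighbour MIR4500HG (chromosome 13, 87427214 to 87671259, beside SLITRK5 at 87672615 to 87696272) reached 53.7 ± 25.9 CPM in HET and 0.504 ± 0.202 CPM in WT. PDE4D, a cyclic AMP phosphodiesterase, was at 139.7 ± 19.2 CPM in HET, 0.955 ± 0.448 CPM in WT and 5.27 ± 3.2 CPM in KO at day 3.

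Against WT, the negative differences were led by genes that rose in WT. ADSS2, an enzyme of AMP synthesis, rose in WT to 458.4 ± 157.4 CPM and was at 36.8 ± 3.45 CPM in HET and 38.7 ± 3.09 CPM in KO at day 3. Its HET minus WT difference was -3.91 log2 (SE 0.25, edgeR adjusted p = 2.10e-09), and its HET minus KO difference was -0.15 log2 (SE 0.25, edgeR adjusted p = 0.861). BMP3 reached 222.4 ± 135.3 CPM in WT and 0.109 ± 0.064 CPM in HET. The change of RASSF8, which overlaps its antisense gene, was lower in HET than in WT by 3.5 log2 (SE 0.24). CNTN4 rose in both, to 5.60 ± 2.81 CPM in HET and 82.6 ± 18.9 CPM in WT. LINC02693 differed already at day 0, at 20.5 ± 0.413 CPM in HET and 0.0528 ± 0.0227 CPM in WT. CHRNA1, a muscle-type acetylcholine receptor subunit, rose more in HET than in WT by 3.44 log2 (SE 0.62, edgeR adjusted p = 0.00798).

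Against KO, 4 of the 5 most negative differences were genes that rose in KO. LRRTM3, a synaptic organizer, reached 37.5 ± 16.1 CPM in KO and 0.209 ± 0.134 CPM in HET. The opioid receptor gene OPRK1 stood at 37.6 ± 9.57 and 0.378 ± 0.194 CPM, TMEM196 at 29.4 ± 10.8 and 0.344 ± 0.144 CPM, and PDGFRA at 67 ± 18.1 and 3.01 ± 1.05 CPM. TNFAIP2 fell in HET from 29 ± 13.4 to 2.22 ± 0.564 CPM and was at 28.9 ± 21.9 CPM in KO. TXNRD2 fell less in HET than in KO, by 3.93 log2 (SE 0.41).

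**Figure D4:**
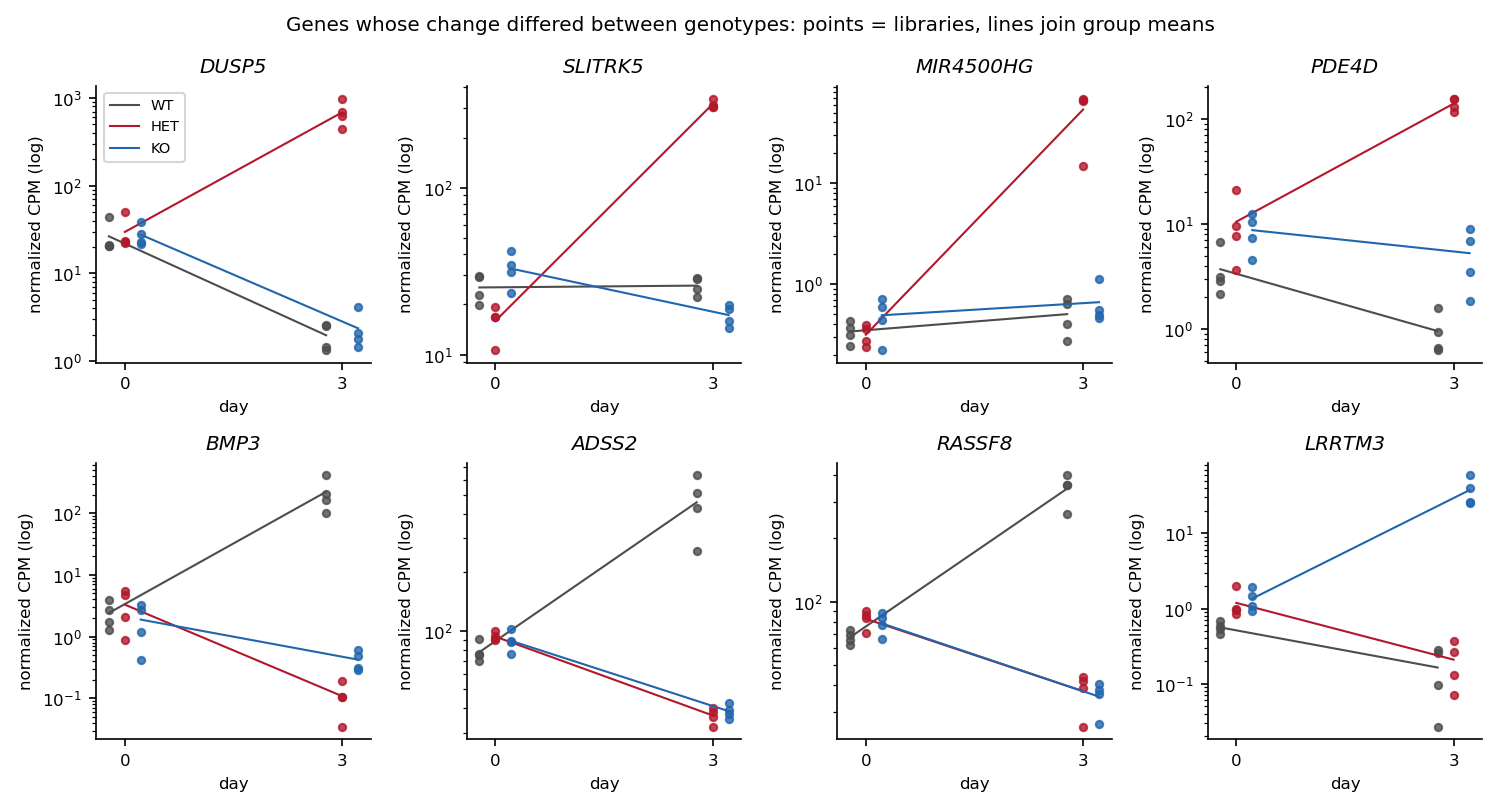
Normalized CPM (log axis) at days 0 and 3 in WT (grey), HET (red) and KO (blue), points for libraries and lines between group means, for 8 genes whose change differed between genotypes. DUSP5, SLITRK5, MIR4500HG and PDE4D rise in HET; BMP3, ADSS2 and RASSF8 rise in WT; LRRTM3 rises in KO.

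Few members of the lists were called in the interactions. Against WT, 4 of 22 proneural factors changed more in HET: the change of EBF2 was larger by 3.15 log2 (edgeR adjusted p = 0.0161), INSM1 by 2.57, NHLH1 by 2.32 and EBF3 by 2.23. The list's median difference was 2.01 log2 beside 0.03 over all genes. Among pan-neuronal genes ELAVL3 was called, larger in HET by 2.56 log2 (edgeR adjusted p = 0.00504), with a list median of 1.04 log2. Against KO the medians of both lists were negative, beside 0.03 log2 over all genes. None of the 22 proneural factors had a larger change in HET, SCRT1 had a smaller one (-2.84 log2 HET minus KO, edgeR adjusted p = 0.0424), and the list's median was -0.94 log2. Among the 20 pan-neuronal genes only MAPT was called, at -1.63 log2 HET minus KO (edgeR adjusted p = 0.0187), and the median was -0.91 log2. Against KO, 5 of 16 DNA replication genes had a higher change in HET: CDC6 fell by 2.07 log2 in HET and by 3.53 log2 in KO, and MCM5, PCNA, CCNE1 and RRM2 differed by 0.97 to 1.51 log2. The median of the replication genes was 1.2 log2 against KO and -0.25 log2 against WT, where none was called. No pluripotency gene was called against either genotype.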

How the data were processed

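RNA was sequenced from 36 libraries in 9 groups of 4, and the 8 HET libraries of days 0 and 3 are described here. The authors deposited expected counts, TPM and FPKM per gene and library in separate tables, per the file headers. All expected counts were already whole numbers, and the FPKM were not used. The submitters' processing notes name cutadapt 4.8, FastQC 0.11.8, MultiQC 1.20, STAR 2.7.8a, RSEM 1.3.3 and GRCh38. The annotation release and the strand setting of the counting are not given in the sources used here, so overlapping and antisense genes cannot be told apart.

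Counts were tested with edgeR 4.0.16 (quasi-likelihood F-test, TMM scaling, its default expression filter, Benjamini-Hochberg adjustment over all genes tested, threshold 0.05). The induction was fitted on the 8 HET libraries and the interactions on the 24 libraries of days 0 and 3, whose CPM are scaled together. Of 62710 genes 20315 passed the filter, and 4 reporter rows, at most 0.0171% of a library, were left out. TPM were tested with limma 3.58.1 on log2(TPM + 1), and DESeq2 1.42.0 was an alternative. Standard errors are the absolute log2 coefficient divided by the square root of F. A fold against a group with no count uses a floor of 3 counts per library and is written as a lower bound. With 1 to 3 counts in the lower group the ratio has a 95% exact Poisson interval of that count. PCR copies are not told apart, so intervals cover counting error only. The tests were checked on simulated counts. Coordinates and overlaps come from GENCODE 29, which matched 92.9% of the gene identifiers, and promoters from RefSeq.

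The 36 gene lists and the comparison were chosen with earlier results of these data known. Genes were named by a rule: RAI1, the 10 largest rises and falls among called genes with a symbol, groups that did not overlap and at least 10 CPM in the group with the higher mean, the largest rise, largest fall and highest level of each list, and the 5 largest differences in each direction of each interaction with at least 5 CPM in a group. Other list members were chosen after their values were seen, for their place in a pathway or their call. Alternatives were other scalings, filters, tools, units, a replicate block, more libraries and leaving out each library. Some genes that the rule names are not reported here, and the closing section leaves them out of its counts.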

Additional observations from a re-analysis of the deposited data

Results flagged for a closer look

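Of 204 groups of 4 HET libraries examined, for the named genes and the library measures on each day, 29 had a library far from the other 3 by Dixon's test. For continuous, normally distributed values chance would give about 1 in 20, or 10.2. Where the other 3 libraries were at 0, any count is flagged, so 29 cannot be set against 10.2. HET day 3 replicate 4 was that library in 11 of them, which include TDGF1, ANXA1, LCK and ZSCAN10, all at 0 in the other 3. At 3 counts or fewer such a flag reflects single reads.

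In day 3 replicate 4, LIN28A was at 370.8 CPM (189.6 to 211.1 in the others), ACVR1B at 117.4 (76.4 to 81.6), DLL3 at 1867 (1096 to 1206), GAPDH at 2609 (1343 to 1423), CIART at 3.22 (1.03 to 1.38) and KLHL40 at 39.8 (1.62 to 7.07). L1TD1 was at 0.760 CPM there (0.0262 to 0.149), ZSCAN10 at 0.217 and TDGF1, ANXA1 and LCK at 0.0362, each against 0 in the other 3. In day 3 replicate 1, RRM2 was at 574.2 CPM (261.2 to 311.5), CCND1 at 22.7 (15.5 to 16), FAS at 4.24 (2.17 to 2.49) and HOXB2 at 37.5 (6.62 to 10.9). In day 3 replicate 2, AKAIN1 was at 11.95 CPM (14.4 to 14.8) and LIX1 at 0.0514 against 0.

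In day 0 replicate 1, PAX6 was at 5.65 CPM (0.491 to 1.24), WNT3A at 7.61 (0.638 to 1.79), HOXB2 at 26 (0 to 1.15), and BHLHE22 and AKAIN1 at 0.0277 against 0. In day 0 replicate 2, COL1A1 was at 1098 CPM (87.7 to 239.3), ANXA1 at 173.3 (6.16 to 28.3), GDF15 at 8.39 (1.24 to 1.36), SLC17A7 at 0.913 (0.491 to 0.526) and CACNG2 at 0.0351 against 0. UNCX was at 0.0399 CPM in day 0 replicate 3 and GGT5 at 0.136 CPM in day 0 replicate 4, each against 0.

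The day 0 to day 3 change differed between HET and WT for 115 genes and between HET and KO for 129, by edgeR's interaction test. In HET minus WT, the named log2 differences were 8.28 for DUSP5, 6.83 for MIR4500HG, 5.68 for PDE4D, 4.28 for SLITRK5, 3.44 for CHRNA1, -11.27 for BMP3, -3.91 for ADSS2, -3.87 for CNTN4, -3.50 for RASSF8 and -3.10 for LINC02693. In HET minus KO they were 8.06 for DUSP5, 6.96 for MIR4500HG, 5.24 for SLITRK5, 4.46 for PDE4D, 3.93 for TXNRD2, -7.22 for LRRTM3, -6.76 for OPRK1, -6.67 for TMEM196, -4.60 for PDGFRA and -4.09 for TNFAIP2.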

How the results depend on the processing

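The induction called 10895 genes, and under the alternatives other than a fold threshold between 7679 (with the share of small structural RNAs in the fit) and 13146 (24 libraries fitted together). Testing against a 2-fold threshold called 4358, since it asks for a larger change. Leaving out 1 HET library gave 9707 to 11965. RAI1 no longer passed on log2(TPM + 1) (0.15), log2(TPM + 0.1) (0.14), with a TPM filter (0.15), with TPM recomputed without the small structural RNAs (0.61) or against the 2-fold threshold (0.86, adjusted p = 1). The cause was not tested.

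The interaction with WT called 348 genes in DESeq2, 29 on TPM, 67 with all 36 libraries and 56 to 350 with 1 library left out. The interaction with KO called 550 in DESeq2, 22 on TPM, 81 with no filter, 61 with all 36 libraries, 40 with the 16 HET and KO libraries and 51 to 362 with 1 library left out. Same-numbered HET libraries of days 0 and 3 correlated at 0.209, 0.07, 0.115 and 0.146 in their deviations from the group means. Differently numbered ones correlated at -0.144 to 0.097, and each day 0 library correlated most with its own number. The labels do not tie the numbers across days, so the main fit took no pairs. Whether the numbers are linked was not tested. A replicate block gave 10411 genes for the induction, 77 for the interaction with WT and 71 for that with KO. Among the 8 tested HOX genes, of which none passed without it, the block called 1 rise and 1 fall and turned the median from -0.64 to 0.27 log2.

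Of the values of 98 named genes in the induction, 2060 kept direction and side of the threshold under an alternative, 62 newly passed, 80 no longer passed and 24 changed sign. For the 20 named interaction values, 514 kept both and 6 no longer passed. On log2(TPM + 1), log2(TPM + 0.1) and with a TPM filter, the sign changed for SNAI2 (-0.46, -0.54, -0.46), RRM2 (-0.34 in each), TOP2A (-0.47, -0.48, -0.47) and PFKM (-0.40, -0.42, -0.40). SNAI2 was at -0.05 on the recomputed TPM and between -0.10 and 0.37 with 1 library left out, negative without day 0 replicate 4 and, at -0.03, without day 3 replicate 4. In a fit that also held each library's share of small structural RNAs, chosen after seeing the data like the recomputed TPM, ACVR2B was at 0.22, NES at 0.02, SNAI2 at -0.07, CLOCK at 0.09 and RN7SL1 at -0.22. With 1 library left out, NES ran from -0.27 to 0.04, positive without day 0 replicate 2. COL1A1 ran from -1.03 to 0.99, and was positive without day 0 replicate 2, day 3 replicate 1 (0.04) and day 3 replicate 3 (0.10).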
